A study of Mus musculus with 2 samples.

Results

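The enzymes and subunits examined here were 10 genes: the Polycomb repressive complex 2 genes Ezh1, Ezh2, Eed and Suz12, the DNA methyltransferases Dnmt1, Dnmt3a and Dnmt3b, and the methylcytosine oxidases Tet1, Tet2 and Tet3. They were taken by name, as 10 of the 28692 genes listed, and no expression value entered their choice. All 10 were measured in both libraries and all 10 passed the filter on low counts. The cells were sorted Sca-1+ cKit+ hematopoietic progenitors from TER-119-depleted fetal livers of wild type CD1 mouse embryos at E13.5, placed on the Notch ligand DL4 (10 μg/mL) with the adhesion molecule VCAM-1 (2.32 μg/mL), a feeder-free system that drives progenitors toward the T-cell lineage. They were profiled in 2 droplet libraries, FL001 and FL002, which share genotype, coating and age. The labels do not give the culture days in each library, nor say whether the libraries came from separate cultures or how many embryos were pooled. The paper describes pooling cells captured right after sorting with cells from later culture days. Gates may therefore also differ in culture time, which was not tested.

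Polycomb repressive complex 2 places methyl groups on lysine 27 of histone H3 and thereby keeps genes silent. Ezh2 and Ezh1 are its alternative catalytic subunits, Ezh2 being known for its high level in dividing cells, while Eed and Suz12 are core subunits that the enzyme needs. On DNA, Dnmt3a and Dnmt3b add methyl groups to unmethylated CpG sites, Dnmt1 copies the pattern to the new strand at replication, and the Tet enzymes oxidize methylcytosine on the way to its removal. Several of them, among them Ezh2, Dnmt3a and Tet2, are known regulators of blood stem cells and are recurrently mutated in blood cancers.

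Barcodes with at least 1500 UMIs (unique molecular identifiers, 1 per captured transcript) and 500 genes and at most 10% mitochondrial UMIs were kept, 1788 in FL001 and 4100 in FL002. Their median depth was 7722 UMIs in FL001 and 4752.5 in FL002, out of 16320118 and 22651783 UMIs in all, and 10 kept barcodes occurred in both libraries. The cells were read through 5 overlapping gates set on other genes. The Lmo2/Mef2c gate (at least 2 UMIs of Lmo2 and Mef2c together and at most 1 of Cd3g) held 428 and 724 barcodes, and the early gate (at most 2 of Cd3g and at most 1 of the Lmo2 and Mef2c sum) 381 and 1134. The Cd3g gate (at least 3 of Cd3g and none of Il2ra) held 327 and 873, the Il2ra gate (at least 1) 738 and 1668, and the committed gate (at least 2 of Ptcra, Lef1 and Bcl11b together) 451 and 501. A level is given below as the gene's UMIs summed over a gate's barcodes and scaled to a gate total of 1000000 UMIs (CPM), with its 95% exact Poisson interval, in FL001 and then FL002. These intervals cover counting error only, and since each transcript is tagged at its 3′ end, CPM is not scaled by gene length.

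The gates followed their names in part. The summed level of 10 progenitor markers fell from 1143 and 1176 CPM in the Lmo2/Mef2c gate to 301 and 323 CPM in the committed gate, where Mecom was at 0, while that of 11 T-lineage markers went from 166 and 199 to 1879 and 1906 CPM, with Cd247 at 0 in the Lmo2/Mef2c gate. The Lmo2/Mef2c gate also held markers of other lineages. The 9 myeloid markers summed to 2460 and 1622 CPM there, to 3704 and 1111 CPM in the early gate and to 31.1 and 84.9 CPM in the committed gate, and the 10 megakaryocyte and erythroid markers went from 932 and 330 to 28.5 and 12.2 CPM. The globin genes Hba-a1 and Hbb-bs, at 89.1 and 167 CPM in this gate in FL001, were at 0 and 0.471 CPM in FL002. The 7 B markers fell from 96.1 and 83.1 CPM there to 49.8 and 49.0 CPM in the committed gate. The summed level of 5 mast and basophil markers went the other way, from 23.7 and 42.6 to 115 and 98.8 CPM. So did that of 9 innate lymphoid and natural killer markers, Gata3 among them, from 121 and 92.0 to 339 and 345 CPM. Of the mast and basophil markers, Prss34, Ms4a2 and Fcer1a were at 0 in the committed gate of both libraries. Only 1 reached 20 CPM there. The calls that start from the Lmo2/Mef2c or early gate are therefore also given without barcodes that carried 3 or more UMIs of the myeloid, megakaryocyte/erythroid, mast/basophil and B lists together, which left 79 and 263 barcodes in the Lmo2/Mef2c gate. In the committed gate of FL001 this cut left 361 of 451 barcodes. It was set on raw UMIs, not scaled to depth, and did not include the innate lymphoid and natural killer list. Of the lists in the cut, that of mast and basophil markers had the highest sum in the committed gate of both libraries. Its part in the barcodes removed was not tested.

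For tests, each barcode was put in 1 gate only and its UMIs were summed by library and gate, so that gates were compared within libraries with edgeR's quasi-likelihood test and Benjamini-Hochberg adjustment over all genes tested. Levels below are of the gates as written, which overlap, and fold changes and tests are of the exclusive gates. The library was a block, so the spread behind the p-values is how far differences between gates varied between these 2 libraries, which may be technical. With 4 residual degrees of freedom for gates and 1 for mitosis, edgeR draws each gene's spread toward that of all genes tested. The p-values therefore rest largely on the spread of other genes. Between the committed and the Lmo2/Mef2c gate 38.4% of the 10587 genes tested passed an adjusted p of 0.05, 18.9% in the lower direction, so that a call here was common. Of the 10 genes 4 passed: Dnmt3b and Tet1 fell, and Suz12 and Ezh2 rose. The median log2 fold change was -0.20 over the 10 genes and -0.01 over all genes tested.

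Dnmt3b, the de novo methyltransferase best known from early embryos, had the clearest change. In FL001 its level was 174 CPM (161 to 188) in the Lmo2/Mef2c gate, 150 (137 to 165) in the early gate, 118 (106 to 132) in the Cd3g gate, 113 (105 to 122) in the Il2ra gate and 84.5 (75.2 to 94.6) in the committed gate. In FL002 it was 195 (182 to 208), 166 (156 to 177), 134 (123 to 145), 148 (139 to 156) and 117 (103 to 131) CPM. The Lmo2/Mef2c gate was highest and the committed gate lowest in both libraries, and the intervals of these gates did not overlap. The Lmo2/Mef2c interval overlapped that of the early gate in FL001, and the committed interval that of the Cd3g gate in FL002. The Cd3g and Il2ra gates kept one order in FL001 and the other in FL002. Of their barcodes 51.4% and 37.3% in FL001 and 22.7% and 17.4% in FL002 were also in the committed gate. In the exclusive gates Dnmt3b was at 175, 150, 146, 130 and 84.5 CPM in FL001. The FL002 values were 195, 168, 143, 151 and 117 CPM. The log2 fold change from the Lmo2/Mef2c to the committed gate was -0.87 (SE 0.10, adjusted p = 2.0e-08), with -0.99 in FL001 alone and -0.74 in FL002 alone. Part of this fall lay at the last step: from the Il2ra to the committed gate, where 10.0% of genes passed, Dnmt3b fell by 0.51 on the log2 scale (SE 0.10, adjusted p = 0.00039). Without a library term that step no longer passed (adjusted p = 0.13).

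The share of barcodes with at least 1 Dnmt3b UMI followed its level. It was 67.5% (95% exact binomial interval 62.9 to 71.9) and 61.9% (58.2 to 65.4) in the Lmo2/Mef2c gate against 39.0% (34.5 to 43.7) and 36.7% (32.5 to 41.1) in the committed gate. Since depth differed between gates, each barcode was also thinned to 1500 UMIs, which gave 25.5% and 24.3% against 8.87% and 15.0%. Barcodes with 1 to 100 UMIs, which hold free RNA in place of a cell, had 2.94 and 3.83 UMIs each on average in FL001 and FL002. Dnmt3b was at 105 CPM (84.7 to 128) and 153 CPM (131 to 178) in them, against 134 and 158 CPM over all kept barcodes. How much free RNA added to the share of barcodes with a UMI was not tested. Next to the thresholds the libraries had opposite orders, with intervals that overlapped within each library. Barcodes with exactly 2 UMIs of Lmo2 and Mef2c had Dnmt3b at 169 and 194 CPM and those with exactly 1 at 177 and 176 CPM, while those with exactly 2 UMIs of the committed-gate genes had 84.7 and 132 CPM and those with exactly 1 had 111 and 123 CPM.

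**Figure D1:**
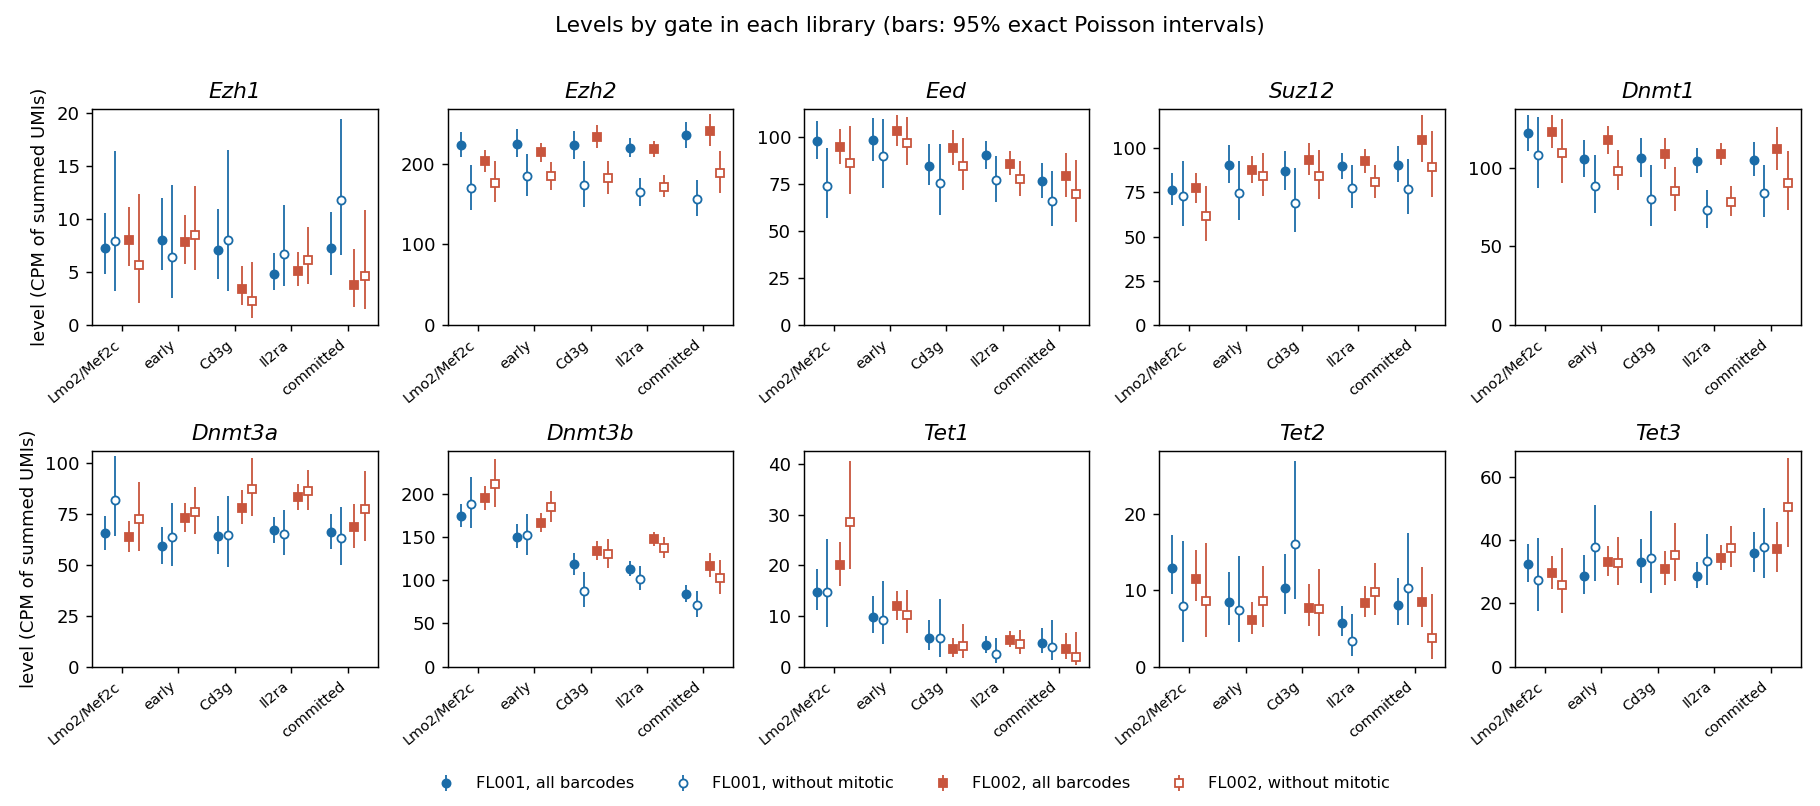
Level of each of the 10 genes (y axis, CPM of summed UMIs, separate scale per gene) in the 5 gates (x axis) of FL001 (circles) and FL002 (squares), with all barcodes (filled) and without mitotic barcodes (open); bars are 95% exact Poisson intervals. Dnmt3b goes from 174 and 195 CPM in the Lmo2/Mef2c gate to 84.5 and 117 CPM in the committed gate, and Tet1 from 14.8 and 20.01 to 4.76 and 3.38 CPM.

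Tet1, the oxidase known from embryonic stem cells, was a low gene that fell as well. Its level in the Lmo2/Mef2c gate was 14.8 CPM (11.2 to 19.3) from 55 UMIs in FL001 and 20.01 CPM (16.0 to 24.7) from 85 UMIs in FL002. The early gate had 9.77 and 11.9 CPM, the Cd3g gate 5.66 and 3.41, the Il2ra gate 4.19 and 5.25, and the committed gate 4.76 (2.77 to 7.62) and 3.38 (1.46 to 6.66) CPM from 17 and 8 UMIs. In the gates as written, the Lmo2/Mef2c gate was above the last 3 gates in both libraries, and those 3 did not differ beyond their intervals. In the exclusive gates of FL001 the early gate was at 9.79 CPM and the Cd3g gate at 7.43 CPM (3.71 to 13.3). The latter overlapped the Lmo2/Mef2c gate there, at 15.1 CPM (11.3 to 19.8). The log2 fold change to the committed gate was -2.00 (SE 0.31, adjusted p = 5.4e-06), -1.55 in FL001 alone and -2.47 in FL002 alone. From the early to the Cd3g gate, where 8.17% of genes passed, Tet1 fell by 1.33 on the log2 scale (SE 0.35, adjusted p = 0.013), but this step came mostly from FL002, with -1.87 there against -0.35 in FL001, and it did not pass with DESeq2, without a library term or without mitotic barcodes. Without barcodes of other lineages it was -1.87 (adjusted p = 0.011). In the barcodes with 1 to 100 UMIs Tet1 was at 6.61 and 6.23 CPM, from 6 and 7 UMIs. Its intervals there held its level in the committed gate of both libraries. Such barcodes held 2.94 and 3.83 UMIs each on average, and the part of free RNA in the committed gate was not tested.

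Both falls were also measured without the barcodes that carried other lineages' UMIs. The log2 fold change from the Lmo2/Mef2c to the committed gate was then -0.84 for Dnmt3b (adjusted p = 6.3e-07) and -2.56 for Tet1 (adjusted p = 2.8e-06). In FL001, where 79 barcodes remained in the Lmo2/Mef2c gate, Dnmt3b was lower there than with all barcodes, at 128 CPM (99.9 to 163), and lay at 81.1 CPM (70.5 to 92.8) in the committed gate, while in FL002 it went from 210 (185 to 237) to 108 CPM (93.9 to 123). In FL001 the early gate, at 147 CPM (122 to 176), then lay above the Lmo2/Mef2c gate with overlapping intervals, so the Lmo2/Mef2c gate was highest in FL002 only. Mitotic barcodes, those with at least 2 UMIs of Top2a, Cdk1, Plk1 and Ccnb1 together, made up 65.0% and 65.1% of the Lmo2/Mef2c gate and 48.8% and 42.7% of the committed gate. Without them Dnmt3b went from 188 (160 to 219) to 70.8 CPM in FL001 and from 211 to 103 CPM in FL002, a log2 fold change of -1.18 (adjusted p = 1.4e-07), and Tet1 changed by -2.80 (adjusted p = 0.00016). Within the mitotic barcodes Dnmt3b went from 170 to 92.0 and from 189 to 128 CPM. Among barcodes that were neither mitotic nor rich in replication transcripts (0 or 1 UMI of Mcm3, Mcm5, Mcm6, Pcna, Tyms and Rrm2 after thinning), it was at 177 CPM (144 to 216) and 220 CPM (187 to 257) in the Lmo2/Mef2c gate and at 59.7 CPM (44.7 to 78.1) and 116 CPM (91.9 to 143) in the committed gate.

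Dnmt3a, the other de novo methyltransferase, did not follow Dnmt3b. Its levels were 65.3, 59.0, 64.0, 66.9 and 66.0 CPM from the Lmo2/Mef2c to the committed gate in FL001 and 63.5, 72.9, 77.7, 83.0 and 68.4 CPM in FL002, with a log2 fold change of 0.09 (SE 0.12, adjusted p = 0.60). Of the UMIs of both genes, Dnmt3b held 72.7% (95% exact binomial interval 69.7 to 75.7) in the Lmo2/Mef2c gate and 56.1% (51.8 to 60.4) in the committed gate of FL001, and 75.4% (72.7 to 77.9) and 63.0% (58.3 to 67.5) in FL002. The share fell in both libraries, with intervals that did not overlap. Dnmt1, the maintenance enzyme, was highest in the Lmo2/Mef2c gate, at 122 (111 to 134) and 123 (112 to 134) CPM, and lay at 105 and 112 CPM in the committed gate. Its log2 fold change of -0.15 (SE 0.09, adjusted p = 0.22) did not pass.

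Tet2, which is frequently lost in blood cancers, and Tet3 were measured at 13.0 and 11.5 CPM and at 32.4 and 29.4 CPM in the Lmo2/Mef2c gate. Tet2 fell from the Lmo2/Mef2c to the early gate, where 12.2% of genes passed, by 0.87 on the log2 scale (SE 0.27, adjusted p = 0.033), with levels of 8.42 and 6.12 CPM in the early gate. The value was -0.17 without mitotic barcodes (adjusted p = 0.94) and -0.48 without barcodes of other lineages (adjusted p = 0.71), and the call was also lost with DESeq2 (adjusted p = 0.54) and without a library term (adjusted p = 0.13). In barcodes with 1 to 100 UMIs Tet2 was at 11.02 CPM (5.29 to 20.3) and 16.9 CPM (10.2 to 26.4), against 8.66 and 8.27 CPM over all kept barcodes. The former held 2.94 and 3.83 UMIs each on average. The part of free RNA in the Tet2 levels, and in the shares of Tet1 and Tet2 that rest on them, was not tested. In the committed gate Tet2 was at 8.11 and 8.45 CPM and Tet3 at 35.8 and 37.2 CPM, and neither passed against the Lmo2/Mef2c gate (Tet2 log2 fold change -0.56, adjusted p = 0.10; Tet3 0.31, adjusted p = 0.13). Without mitotic barcodes Tet3 passed with a log2 fold change of 0.73 (adjusted p = 0.026), from 27.3 to 37.8 CPM in FL001 and from 25.7 to 50.4 CPM in FL002. Tet3 passed in only 1 of 9 other settings, this one. Its intervals in the exclusive gates of FL001 overlapped without mitotic barcodes (17.3 to 41.0 and 27.9 to 50.1 CPM). Of the Tet1 and Tet2 UMIs together, Tet1 held 53.4% (43.3 to 63.3) and 63.4% (54.7 to 71.6) in the Lmo2/Mef2c gate and 37.0% (23.2 to 52.5) and 28.6% (13.2 to 48.7) in the committed gate. Only in FL002 did these intervals not overlap.

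**Figure D2:**
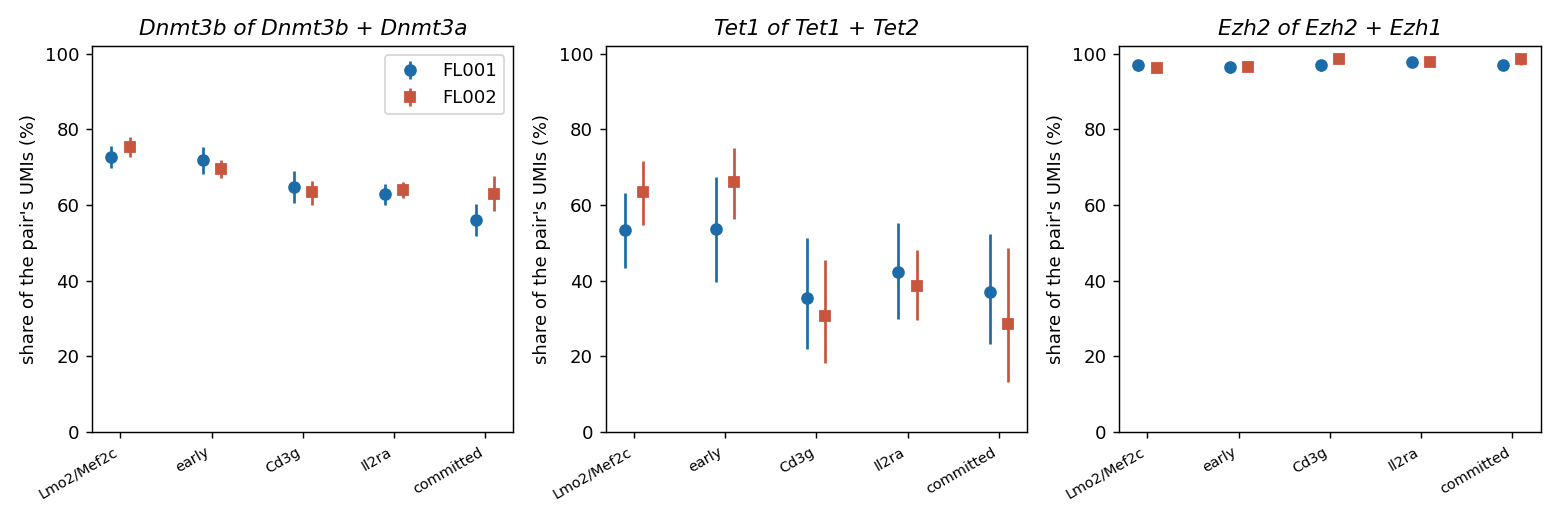
Share of a pair's UMIs (y axis, percent) held by Dnmt3b of Dnmt3b and Dnmt3a (left), Tet1 of Tet1 and Tet2 (middle) and Ezh2 of Ezh2 and Ezh1 (right) in the 5 gates (x axis) of FL001 (circles) and FL002 (squares), with 95% exact binomial intervals. With all barcodes, as drawn, Dnmt3b goes from 72.7% and 75.4% to 56.1% and 63.0%, while Ezh2 stays between 96.2% and 98.6% in each gate.

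The Polycomb genes Ezh2, Eed and Suz12 had smaller fold changes between these gates than Dnmt3b and Tet1. Ezh2 was measured at 223, 225, 223, 220 and 235 CPM in FL001 and 203, 214, 234, 219 and 241 CPM in FL002. The intervals overlapped between all gates in FL001, whereas in FL002 the Lmo2/Mef2c gate (190 to 217) lay below the Cd3g (220 to 249) and committed (222 to 262) gates. Its rise to the committed gate was small (log2 fold change 0.19, SE 0.08, adjusted p = 0.047) and passed in 2 of 9 other settings. Without barcodes of other lineages it was 0.20 (adjusted p = 0.16). Without mitotic barcodes the change was -0.00015 (adjusted p = 0.9999), from 170 to 157 CPM in FL001 and from 177 to 189 CPM in FL002. Among mitotic barcodes alone Ezh2 went from 240 to 279 and from 212 to 284 CPM. Ezh1, its paralog, which is known from resting cells, was at 7.29 and 8.002 CPM in the Lmo2/Mef2c gate and 7.27 and 3.80 CPM in the committed gate. With all barcodes Ezh2 held between 96.2% and 98.6% of the UMIs of the pair in each gate. Without mitotic barcodes that share ran from 93.0% (88.7 to 96.0) in the committed gate of FL001, with 15 Ezh1 UMIs, to 98.8% in the Cd3g gate of FL002, with 4. Ezh1 did not pass in any comparison, and its change from the Lmo2/Mef2c to the committed gate was -0.03 in FL001 and -1.12 in FL002 on the log2 scale.

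Suz12 and Eed are the subunits that hold the enzyme in the complex. Suz12 was lowest in the Lmo2/Mef2c gate, at 76.6 CPM (68.0 to 86.1) and 77.4 CPM (69.3 to 86.3), and lay at 90.7 CPM (81.0 to 101) and 105 CPM (92.1 to 119) in the committed gate, a log2 fold change of 0.36 (SE 0.10, adjusted p = 0.0066). This call moved with the markers of other lineages: without barcodes that carried them, Suz12 was at 100 and 98.5 CPM in the Lmo2/Mef2c gate and 91.5 and 103 CPM in the committed gate, and the fold change was 0.02 (adjusted p = 0.94). It did not pass with DESeq2 (adjusted p = 0.072) or without mitotic barcodes (adjusted p = 0.16) either. Eed was at 98.2 and 94.6 CPM in the Lmo2/Mef2c gate and at its lowest in the committed gate, with 76.7 CPM (67.9 to 86.3) and 79.4 CPM (68.4 to 91.6). Its log2 fold change of -0.26 (SE 0.11, adjusted p = 0.055) did not pass. From the Cd3g to the Il2ra gate none of the 10 genes passed with edgeR or DESeq2, where edgeR called 0.170% of genes (18 genes, with 446 at an unadjusted p under 0.05, and 5 genes with DESeq2). None of the 10 had an unadjusted p under 0.05 there.

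**Figure D3:**
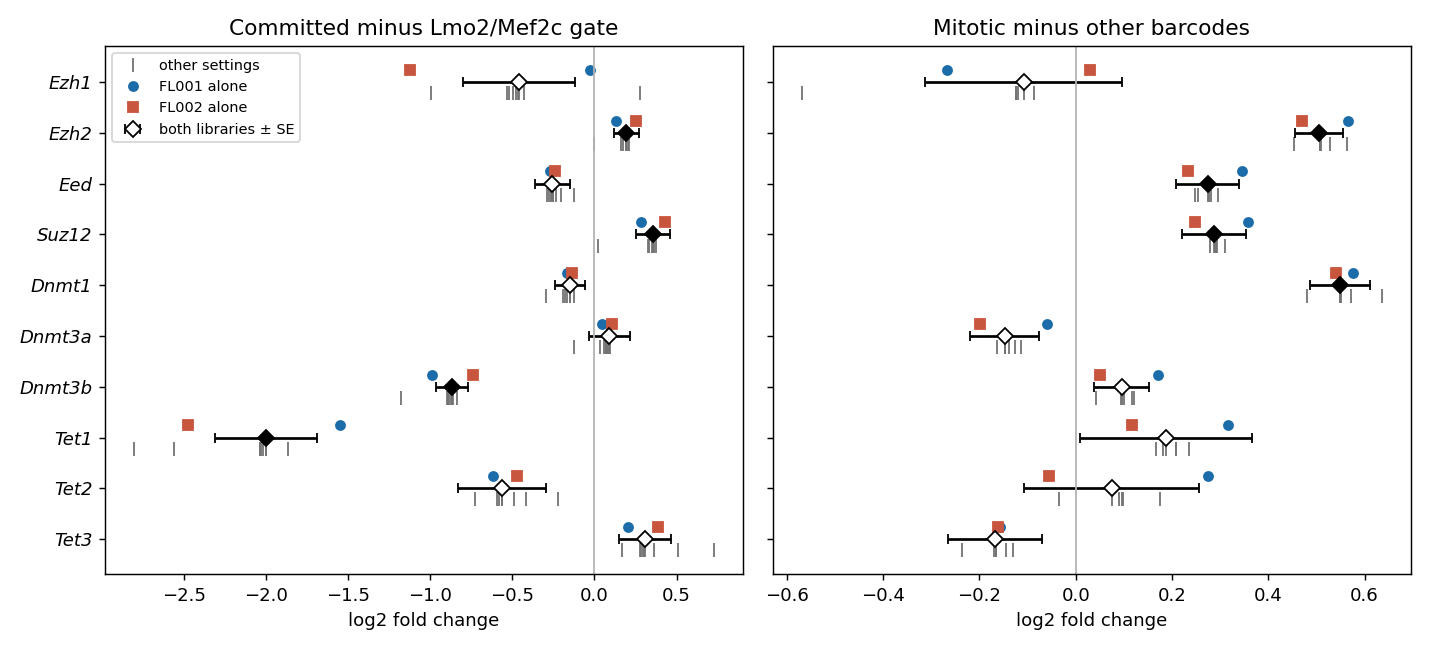
Log2 fold change of each of the 10 genes from the Lmo2/Mef2c to the committed gate (left) and from other to mitotic barcodes (right). Diamonds give the edgeR value of both libraries with its SE, filled where the adjusted p is under 0.05; circles and squares give FL001 and FL002 alone, and grey ticks the other settings. On the left Dnmt3b (-0.87) and Tet1 (-2.00) lie below 0 in each setting, and on the right Ezh2 (0.51), Dnmt1 (0.55), Eed (0.27) and Suz12 (0.29) lie above 0 in each.

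The comparison of mitotic with other barcodes gave another grouping. The mitotic class held 1001 of the 1788 barcodes in FL001 (56.0%) and 2026 of 4100 in FL002 (49.4%). The class is a cut on the UMIs of 4 genes, and whether its barcodes were in mitosis was not tested. The 4 genes that define the class were left out of the counts, and 26.0% of the 11327 genes tested passed, 13.4% in the higher direction. Mitotic barcodes were deeper, with gate medians of 5783 to 10752 UMIs against 3269 to 5682 in the others, and the part of depth in the result was not tested. Of the 10 genes 4 passed, each of them higher in mitotic barcodes. Ezh2 went from 170 CPM (161 to 180) in the other barcodes to 247 CPM (237 to 256) in mitotic ones in FL001 and from 178 to 244 CPM in FL002, a log2 fold change of 0.51 (SE 0.05, adjusted p = 2.3e-08). Dnmt1 went from 83.7 to 122 CPM and from 89.0 to 128 CPM (log2 fold change 0.55, SE 0.06, adjusted p = 2.3e-07). The 2 other core subunits moved less, Suz12 from 73.4 to 92.2 and from 80.8 to 95.03 CPM (0.29, adjusted p = 0.0022) and Eed from 78.8 to 98.0 and from 84.5 to 98.4 CPM (0.27, adjusted p = 0.0028), and neither passed with DESeq2 or without a library term. Dnmt3b did not pass (log2 fold change 0.10, adjusted p = 0.24), with 125 and 138 CPM in FL001 and 155 and 159 CPM in FL002. Dnmt3a, Tet1, Tet2, Tet3 and Ezh1 did not pass, with log2 fold changes from -0.17 to 0.19.

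Ezh2 and Dnmt1 were also higher in barcodes with more replication transcripts outside the mitotic class, a comparison given as a description without a test. The share of barcodes in that class rose with replication UMIs (0 or 1, 2 to 4, 5 or more). It was 45.4%, 66.5% and 83.5% in FL001 and 41.1%, 61.2% and 81.9% in FL002. The 2 groupings are thus not separate, and whether barcodes below the cut were outside mitosis was not tested. Among barcodes that were not mitotic, Ezh2 was at 158 CPM (144 to 173) and 163 CPM (153 to 174) in those with 0 or 1 replication UMI and at 193 CPM (172 to 216) and 210 CPM (192 to 229) in those with 2 to 4. Dnmt1 went from 74.5 (65.1 to 85.0) to 99.7 CPM (84.8 to 116) in FL001 and from 80.0 (72.7 to 87.7) to 109 CPM (96.0 to 123) in FL002. For both genes the intervals of the 2 classes overlapped slightly in FL001 and did not overlap in FL002. Eed went from 69.2 (60.1 to 79.3) to 95.3 CPM (80.8 to 112) in FL001 but lay at 83.4 and 87.1 CPM in FL002, and Suz12 was at 74.9 and 71.7 CPM in FL001 and at 76.6 and 88.8 CPM in FL002. Dnmt3b showed no such step, at 120 and 136 CPM in FL001 and 161 and 143 CPM in FL002. The barcodes with 5 or more replication UMIs numbered 16 and 26 outside the mitotic class, too few to read.

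**Figure D4:**
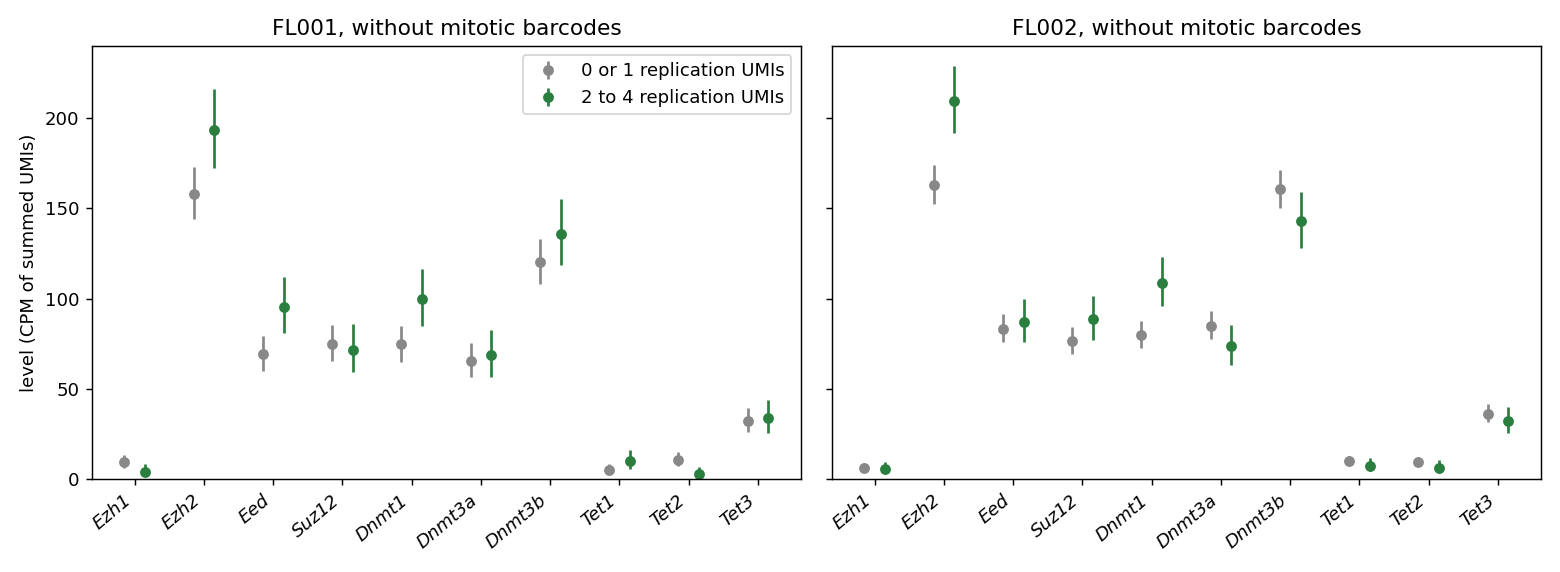
Level of the 10 genes (y axis, CPM of summed UMIs) in barcodes without the mitotic class, split by replication UMIs after thinning to 1500 UMIs: 0 or 1 (grey) and 2 to 4 (green), in FL001 (left) and FL002 (right), with 95% exact Poisson intervals. Ezh2 goes from 158 to 193 CPM in FL001 and from 163 to 210 CPM in FL002, while Dnmt3b lies at 120 and 136 CPM in FL001 and at 161 and 143 CPM in FL002.

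The promoters of Ezh2, Dnmt1, Suz12 and Eed, the 4 genes higher in mitotic barcodes, are shown for the letters they hold. RefSeq windows of GRCm38.p6, from 250 bases before to 50 after an annotated start, were found for all 10 genes, 14 windows in all, with 3 each for Dnmt1 and Dnmt3a. They were searched on both strands for 4 words of the E2F type, the site of the factors that switch on genes for DNA replication: TTTGGCGC, TTTCGCGC, TTTCCCGC and TTTGCCGC. Capitals mark each match, and a match on the other strand appears as its reverse complement. The Ezh2 window lies at chr6:47594981-47595280, the Suz12 window at chr11:79992856-79993155, the Dnmt1 window with matches at chr9:20952574-20952873 and the Eed window at chr7:89980927-89981226, the Suz12 one on the plus and the others on the minus strand, each written 5′ to 3′ along its gene.
Ezh2: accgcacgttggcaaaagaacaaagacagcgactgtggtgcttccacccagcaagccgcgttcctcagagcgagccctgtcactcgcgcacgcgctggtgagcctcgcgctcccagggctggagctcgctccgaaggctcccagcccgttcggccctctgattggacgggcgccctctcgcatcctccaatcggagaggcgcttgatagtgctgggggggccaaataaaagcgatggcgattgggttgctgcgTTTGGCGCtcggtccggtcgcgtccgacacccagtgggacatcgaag
Dnmt1: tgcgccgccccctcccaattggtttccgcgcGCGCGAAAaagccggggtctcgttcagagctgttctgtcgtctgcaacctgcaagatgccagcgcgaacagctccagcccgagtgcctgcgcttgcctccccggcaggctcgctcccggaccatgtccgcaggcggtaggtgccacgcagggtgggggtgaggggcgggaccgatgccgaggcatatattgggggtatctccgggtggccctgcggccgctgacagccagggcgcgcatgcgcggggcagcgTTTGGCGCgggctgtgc
Suz12: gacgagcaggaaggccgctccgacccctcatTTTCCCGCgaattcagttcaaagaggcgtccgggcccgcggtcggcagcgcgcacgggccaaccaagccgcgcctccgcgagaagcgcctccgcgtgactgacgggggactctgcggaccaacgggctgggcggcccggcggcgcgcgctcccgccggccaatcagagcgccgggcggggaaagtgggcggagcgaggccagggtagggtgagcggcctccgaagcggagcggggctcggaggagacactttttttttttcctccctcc
Eed: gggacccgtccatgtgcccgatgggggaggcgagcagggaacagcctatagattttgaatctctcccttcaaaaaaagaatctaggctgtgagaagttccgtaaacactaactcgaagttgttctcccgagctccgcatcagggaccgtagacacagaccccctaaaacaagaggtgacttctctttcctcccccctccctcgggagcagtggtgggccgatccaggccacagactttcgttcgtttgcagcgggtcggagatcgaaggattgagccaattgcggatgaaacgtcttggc
Ezh2 holds TTTGGCGC 3 bases after its start. The shown Dnmt1 window holds the same word 33 bases after the start annotated for that window and TTTCGCGC on the other strand, 219 bases before that start. This window was shown for its matches and lies furthest downstream of the 3 Dnmt1 windows, and the other 2 hold 0 matches. Suz12 holds TTTCCCGC 219 bases before its start. The matches do not overlap each other. Of the 4 genes higher in mitotic barcodes 3 thus held a word, of the other 6 genes 0 did, and 2.26% of the 32851 RefSeq windows of this length hold at least 1. That share counts windows, not genes, and is not matched for CpG content, though each of the 4 words holds a CpG. The split of the 10 genes also rests on the calls of Suz12 and Eed, which were lost with DESeq2 and without a library term. The match is a description of the letters and was made with the values known, and draws nothing on the factor. The windows shown hold 31 CpG in Ezh2, 33 in Dnmt1, 41 in Suz12 and 17 in Eed, against a median of 7 and a 75th percentile of 20 over all windows, and those of the other 6 genes hold 17 to 57. The part of CpG content in the matches was not tested. The Dnmt1 windows not shown hold 2 and 12.

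Genes that work with these enzymes were read from lists chosen by function. Of 9 tested genes of the PRC2 core and accessory list, which holds the 4 Polycomb genes above, 4 passed from the Lmo2/Mef2c to the committed gate, near the 38.4% of all genes. Beside Suz12 and Ezh2, whose calls were lost in other settings, 1 of the 5 further genes rose and 1 fell. The riser was Mtf2, a subunit that guides the complex to CpG islands, at 147 and 157 CPM in the exclusive Lmo2/Mef2c gate and 361 and 412 CPM in the committed gate (log2 fold change 1.38, SE 0.08, adjusted p = 2.8e-15). Its level lay at 156, 182 and 189 CPM in the gates between in FL001 and at 169, 212 and 212 CPM in FL002. The log2 fold change at the last step, from the Il2ra to the committed gate, was 0.94 (adjusted p = 5.8e-11). Rbbp7, a histone-binding subunit, fell by 0.25 on the log2 scale (adjusted p = 0.0058). Without barcodes of other lineages Mtf2 changed by 1.44 (adjusted p = 3.0e-16), and Rbbp7 did not pass (-0.22, adjusted p = 0.062).

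Of 19 tested genes of PRC1, the partner complex that ubiquitinates histone H2A, 5 rose and 3 fell, a share of 42.1% that is near the 38.4% of all genes. The shares of the lists that follow are to be read against the same background. Phc3, a polyhomeotic subunit, rose from 7.14 to 19.0 and from 8.55 to 12.2 CPM (log2 fold change 1.06, adjusted p = 0.0013). Kdm2b, which recruits a PRC1 variant to CpG islands, fell from 54.5 to 31.6 and from 51.3 to 29.1 CPM (-0.76, adjusted p = 4.9e-05). Of 9 tested partners and readers of DNA methylation 3 rose and 1 fell, with Mbd2 at 0.60 (adjusted p = 0.010), Mbd1 at 0.54 (adjusted p = 0.016) and Uhrf1, which brings Dnmt1 to replicated DNA, at 0.34 (adjusted p = 0.0032). Of 7 genes of demethylation and repair only Gadd45a passed (1.26, adjusted p = 4.4e-06), at 17.7 and 16.1 CPM against 52.3 and 26.6 CPM. Of 5 genes that remove lysine 27 methylation or H2A ubiquitin 1 rose, Asxl1 (0.58, adjusted p = 0.026), and of 8 trithorax-group genes 1 fell, Ash1l (-0.67, adjusted p = 0.00072). Of 11 replication genes 6 rose and 0 fell, led by Pcna (0.63, adjusted p = 0.0037), Cdc6 (0.49, adjusted p = 0.012) and Rrm2 (0.43, adjusted p = 0.00016). Without barcodes of other lineages, where 24.2% of 9667 genes passed, Kdm2b (-0.86, adjusted p = 0.0013), Phc3 (1.18, adjusted p = 0.031), Gadd45a (1.41, adjusted p = 0.00021), Ash1l (-0.58, adjusted p = 0.032) and Cdc6 (1.02, adjusted p = 0.0026) still passed. Mbd1, Mbd2, Uhrf1, Asxl1, Pcna and Rrm2 did not, with adjusted p from 0.057 to 0.42, and 1 of the 11 replication genes passed.

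In mitotic barcodes, where 26.0% of all genes passed and 13.4% were higher, 3 of the 6 further PRC2 genes tested passed. Rbbp4 (0.22, adjusted p = 0.0012) and Rbbp7 (0.27, adjusted p = 4.9e-05) were higher, and Jarid2 (-0.33, adjusted p = 0.026), a subunit that recruits the complex, was lower. Of 20 PRC1 genes 1 was higher and 2 were lower, which is below that background. Of 9 tested partners and readers of DNA methylation 3 were higher and 1 was lower. Among the higher ones were Uhrf1 (0.42, adjusted p = 1.5e-05) and Hells (0.37, adjusted p = 2.9e-05), a chromatin remodeller needed for DNA methylation. Of 5 genes that remove lysine 27 methylation or H2A ubiquitin 0 were higher and 2 lower. Of 7 genes of demethylation and repair 0 were higher and 1 lower. Of 8 trithorax-group genes 1 was higher and 0 lower, and 7 of 11 replication genes were higher and 0 lower.

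Among the 3698 other genes with at least 50 CPM in 1 sum, the genes whose log2(CPM + 10) over the 10 sums of library and gate was most like that of Dnmt3b were Gatad1 (Pearson r 0.97), Tes (0.96) and Cd81 (0.95). For Dnmt1 they were Hmga2 (0.97), Fosb (0.97) and Tspan6 (0.97), for Eed Ptpn7 (0.95), Bri3bp (0.94) and Mpp6 (0.94), and for Suz12 Golph3 (0.94), Mapk1ip1l (0.93) and mt-Atp6 (0.92). For Dnmt3a they were Cltc (0.95), Rps10 (0.90) and Krtcap2 (0.85), for Ezh2 Cbl (0.88), Clip1 (0.86) and Mxd4 (0.85), and for Tet3, among 3699 genes, Ikzf2 (0.81), Srpk2 (0.80) and Ubald2 (0.79). These are the highest of many correlations over 10 sums from 2 libraries, in which gates share a library and its free RNA, and they are given as a description.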

How the data were processed

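The 2 droplet libraries were prepared by the authors with 10X Chromium and CellRanger, whose version is not given in the sources used here. What the authors deposited are UMI counts, not normalized, for every gene in every barcode, empty droplets included. The labels list the build mm9, while the gene identifiers include ones of later annotations, so no gene coordinates were taken from the files.

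Genes, gates and lists were chosen with earlier results of these data known, and the promoter words after the values were seen. Named list genes are up to 3 with the largest changes among those called between the committed and Lmo2/Mef2c gates, those of the mitotic comparison were chosen after their values were seen, 1 gene that this rule names is not reported here, and likeness was read for genes with at least 20 CPM in 1 gate of both libraries. A barcode of several gates went to the first of committed, Il2ra, Cd3g, early and Lmo2/Mef2c, which gave 10 sums with 4 residual degrees of freedom, and 4 sums with 1 for mitosis. The library was a block in both fits, since each library gives every gate and pairs them by origin. Counts were analysed with edgeR 4.0.16 (TMM, filterByExpr, glmQLFit, glmQLFTest) in R 4.3.3, with DESeq2 1.42.0 as an alternative, after barcode handling in scanpy 1.11.5 and scipy 1.17.1. Scrublet marked 0.336% and 0.0976% of barcodes, under the 0.5% that a working caller needs, so doublets stayed in, and an alternative removed the top 5% of scores and the shared barcodes. In both simulations below only genes with a mean of at least 20 UMIs per sum were changed, so the rates do not cover lower genes or smaller changes. The first drew all 10 gate sums from library means (10328 genes), with genes changed in the committed gate. Against the Lmo2/Mef2c gate 84 of 100 genes changed 2-fold and 96 of 100 changed 4-fold were recovered, with 9 false calls among 10128. In data simulated from the mitotic sums (11192 genes) 93 of 100 and 99 of 99 were recovered, with 12 false calls among 10993.
Of the 10 genes, Ezh2, Suz12, Dnmt3a, Dnmt3b and Tet2 overlap a gene on the opposite strand. The strand setting of the counting is not given in the sources used here.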

Additional observations from a re-analysis of the deposited data

How the results depend on the processing

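The fall of Dnmt3b and Tet1 from the Lmo2/Mef2c to the committed gate passed in each of 9 tested alternatives, with log2 fold changes from -1.18 to -0.84 and from -2.80 to -1.86. In single libraries, which allow no test, Dnmt3b ranged from -0.99 to -0.74 and Tet1 from -2.47 to -1.55. Suz12 passed in 6 of the 9 and Ezh2 in 2. Without mitotic barcodes Ezh2 (-0.00015), Ezh1 (0.28) and Dnmt3a (-0.13) changed sign between these gates, and with a mitotic threshold of 1 UMI Tet2 did so in mitotic barcodes (-0.035). The cause of these changes was not tested. In single libraries Tet2 ranged from -0.05 to 0.28 and Ezh1 from -0.27 to 0.03 in mitotic barcodes.

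Counts of genes called follow in the order committed against Lmo2/Mef2c, early against Lmo2/Mef2c, Cd3g against early, Il2ra against Cd3g, committed against Il2ra. They were 4068, 1291, 865, 18 and 1060 as reported. DESeq2 gave 2402, 511, 375, 5 and 360, with 2, 0 and 0 of the 10 genes in the first 3, and in mitotic barcodes 734 against 2947 with 2 of the 10. The fit with no replicate block, that is without the pairing of gates by library, gave 411, 276, 2 and 375 for the last 4, with 0 of the 10 in each, and 352 in mitotic barcodes with 2 of the 10. Without mitotic barcodes they were 2330, 476, 497, 10 and 475, with 0 of the 10 in early against Lmo2/Mef2c and in Cd3g against early. Without barcodes of other lineages they were 2342, 442, 540 and 31 for the first 4, with 2 of the 10 in the first and 0 in the second. With no filter on low counts Il2ra against Cd3g gave 47. The share called higher moved in early against Lmo2/Mef2c (66.7% with DESeq2, 55.4% as reported), in Il2ra against Cd3g (70.2% with no filter, 66.7% from 3000 UMIs, 61.3% without other lineages, 50% as reported) and in mitotic barcodes (65.1% with DESeq2, 77.0% with no block, 51.3% as reported).

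Intervals of the Lmo2/Mef2c and committed gates did not overlap in either library for Dnmt3b and Tet1. After thinning to 1500 UMIs or without mitotic barcodes this held for Dnmt3b alone. How many of all genes separate in this way was not measured, while 38.4% of them passed the edgeR test between these gates. Depth limits the low genes Tet1, Tet2 and Ezh1 most, with 8 Tet1 UMIs in the committed gate of FL002.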
